A study of Mus musculus with 9 samples.

Results

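miR-335 is a microRNA (miRNA) whose hairpin lies in an intron of Mest, an imprinted gene, and it yields 2 mature products, mmu-miR-335-5p and mmu-miR-335-3p (miR-335-5p and miR-335-3p hereafter). Both were taken by name from a deposited table that lists 1966 mature miRNAs of mouse quadriceps muscle. They were chosen by their fold changes and calls in these same libraries, for a response that differed between 2 knockouts. With edgeR's quasi-likelihood test over all miRNAs tested, both arms passed an adjusted p of 0.05 in the comparison of Mbnl2KO with WT (0.0208 for 5p and 0.0106 for 3p), and neither did in that of Mbnl1KO with WT (0.424 and 0.704). Those adjusted p-values record the choice. They lend no support to it, and the levels of both arms are given below as a description.

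Small RNA was sequenced from 3 WT, 3 Mbnl1KO and 3 Mbnl2KO quadriceps at an age of 90 days, 1 library for each numbered replicate. WT mice were C57BL/6J, Mbnl1+/+ and Mbnl2+/+. Mbnl1KO mice were C57BL/6J, carried the deletion of Mbnl1 exon 3 on both chromosomes (ΔE3/ΔE3) and were Mbnl2+/+. Mbnl2KO mice were Mbnl1+/+, and their strain is given as B6.C-Tg(CMV-cre)1Cgn/J, a line with a Cre transgene under the CMV promoter, which is active in most tissues. Their labelled Mbnl2 alleles differed, with ΔE2/ΔE2 in replicate 1, ΔE2/ΔE3 in replicate 2 and ΔE2/ΔE4 in replicate 3, whereas the study describes a single allele. The strain and the loss of Mbnl2 cannot be told apart in any comparison with these mice. The deletions concern mRNAs, which a small RNA library does not measure, so the genotypes were not checked through Mbnl1 or Mbnl2 themselves. The labels do not state whether each library came from a separate mouse, so the spread given is that between these libraries.

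MBNL1 and MBNL2 are RNA-binding proteins of the muscleblind family that regulate alternative splicing and other steps of RNA processing, and they bind YGCY motifs, in which Y is a pyrimidine. A miRNA hairpin is cut out of its primary transcript by Drosha and then trimmed by Dicer to a short duplex, of which 1 strand, or either of them, is loaded into Argonaute. The loaded strand finds its target mRNAs mainly through its seed. Mest encodes a protein of the alpha/beta hydrolase fold and is expressed from the paternal chromosome. A miRNA inside an intron of such a gene can be made from the host transcript or from a transcript of its own. Mest mRNA was not measured in these libraries.

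The mature sequences are printed because the arms carry different seeds and can therefore bind different targets. The seed, bases 2 to 8, is in capitals, and the run between the arms follows in lower case throughout.
miR-335-5p: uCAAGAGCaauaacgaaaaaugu
miR-335-3p: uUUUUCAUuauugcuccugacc
miR-335 loop: uuguuuuucguaaaccg

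These sequences are those of RefSeq (table of assembly GRCm38.p6), and the hairpin of 98 bases matched the GRCm39 genome at 1 place on chromosome 6, on the plus strand, at chr6:30741298-30741395. The 5p arm (23 bases) lay at chr6:30741313-30741335, the loop of 17 bases at chr6:30741336-30741352 and the 3p arm (22 bases) at chr6:30741353-30741374. Mest spans chr6:30723546-30752058 in the GENCODE annotation, on the same strand. Of its 25 annotated transcripts, 21 span the hairpin, and in all 21 the hairpin was intronic, with no exon overlapping it. Neither seed occurred in any other of 1679 mature mouse miRNAs of the RefSeq table (0 for that of either arm). miR-335 thus has no family member in that table whose counts could stand in for its own.

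The predicted fold of the hairpin had a minimum free energy of -44.3 kcal/mol and paired 18 bases of the 5p arm with the 3p arm, none of them a G-U pair. The 4 YGCY motifs were searched on the printed strand only. UGCU occurred 1 time in the hairpin, at bases 67 to 70. CGCU did not occur in it, nor did UGCC as the next form, and CGCC was likewise missing. That UGCU lies within the 3p arm printed above, not in the loop. UGCU was present in 41.1% of 1005 mouse hairpins in the RefSeq table and in 49.0% of the 194 of similar length. At least 1 of the 4 motifs was present in 68.1% of all hairpins. The match is a description of the sequence, and binding of MBNL1 or MBNL2 to it was not tested. The rest of the intron was not searched.

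The 9 libraries held 4761271 to 6277018 counts in total and 524 to 602 mature miRNAs with a count. miR-1a-3p, the main miRNA of muscle fibres, took 61.4% to 73.7% of the counts. The range of Mbnl1KO (61.4% to 68.6%) lay below that of WT (69.7% to 71.3%) and overlapped that of Mbnl2KO (67.2% to 73.7%). Levels are given in CPM, counts scaled to a common library size, after TMM scaling over the 9 libraries, a procedure in which the few most abundant miRNAs do not set the size of a library. Its factors ran from 0.826 (Mbnl2KO replicate 3) to 1.31 (Mbnl1KO replicate 1). Both of these libraries matter for miR-335, so CPM by library total alone are given beside the scaled values.

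miR-335-5p was the more abundant arm. It ranked 75 of the 909 miRNAs with any count when ordered by their mean level in WT. WT replicates 1, 2 and 3 gave 1056, 1083 and 761 raw counts of miR-335-5p, or 199.1, 183.8 and 163.5 CPM (182 ± 17.9, SD, n = 3). Mbnl2KO replicates gave 1581, 1810 and 966 counts, or 274.5, 309.4 and 213.5 CPM (266 ± 48.5, SD, n = 3). All 3 Mbnl2KO libraries lay above all 3 WT libraries on this scale, with replicate 3 closest to WT. Mbnl1KO replicates gave 922, 1109 and 1137 counts, or 119.6, 200.0 and 166.1 CPM (162 ± 40.4, SD, n = 3). This range enclosed that of WT, because replicate 1 was the lowest and replicate 2 slightly exceeded the highest WT library.

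miR-335-3p was the minor arm, at rank 193 of 909 in WT. Its raw counts were 55, 54 and 38 in WT, which corresponds to 10.37, 9.163 and 8.163 CPM (9.23 ± 1.1, SD, n = 3). In Mbnl2KO they were 123, 147 and 54, or 21.36, 25.13 and 11.93 CPM (19.5 ± 6.79, SD, n = 3). Replicates 1 and 2 of Mbnl2KO stood well above every other library, and replicate 3 was above WT by little more than the spread of WT. In Mbnl1KO they were 86, 64 and 58, or 11.16, 11.54 and 8.474 CPM (10.4 ± 1.67, SD, n = 3), so that this group overlapped WT. Counting error alone would give a coefficient of variation of 14.3% in WT, against 12% observed, and of 9.62% in Mbnl2KO, against 34.9% observed. The spread of miR-335-3p in WT was thus of the size of its counting error, while that in Mbnl2KO was larger. For miR-335-5p the observed coefficient of variation exceeded the counting error in each group, with 9.80% against 3.22% in WT, 24.9% against 3.08% in Mbnl1KO and 18.3% against 2.62% in Mbnl2KO.

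**Figure D1:**
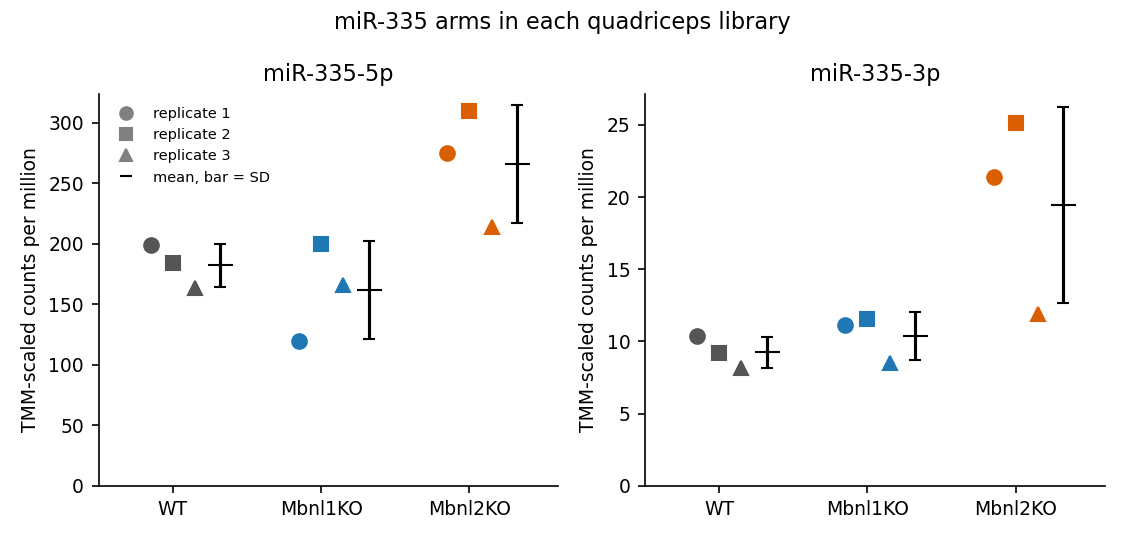
Level of miR-335-5p (left) and miR-335-3p (right) in each library, in TMM-scaled CPM, with a marker for each replicate and the mean with its SD (n = 3) beside each group. The Mbnl2KO libraries lie at 213.5 to 309.4 (5p) and 11.93 to 25.13 (3p), with replicate 3 the lowest of them for both arms.

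In order of the group means, miR-335-5p was highest in Mbnl2KO, then in WT and then in Mbnl1KO, and WT and Mbnl1KO overlapped. miR-335-3p was highest in Mbnl2KO, then in Mbnl1KO and then in WT, and again WT and Mbnl1KO overlapped. The order of these lower 2 groups therefore differed between the arms on the TMM scale, within the spread of the libraries. By library total alone, the mean of Mbnl1KO was above that of WT for both arms. The means were 183 against 169 CPM for miR-335-5p and 12 against 8.58 for miR-335-3p. The distance of Mbnl2KO from WT varied among its libraries. Relative to the mean log2 level of WT, miR-335-5p was higher by 0.60, 0.77 and 0.23 in Mbnl2KO replicates 1, 2 and 3. For miR-335-3p the same distances were 1.17, 1.40 and 0.36, in the same order of libraries. Replicates 1 and 2 were thus far from WT, and replicate 3 was near it. The labels give each of these libraries another allele pair and the study gives a single one, so no value is assigned to an allele. Proximity to WT in this library was also seen for some other miRNAs after TMM scaling. Among the 15 others that passed the test in Mbnl2KO against WT, replicate 3 was the closest Mbnl2KO library to WT for 11. Replicate 2 was the closest for 3 and replicate 1 for 1. These 15 were selected by a test on the same libraries and include both arms of miR-708. The count was not made over all miRNAs tested, so it does not describe the library as a whole.

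The scaling set where Mbnl2KO replicate 3 fell. In CPM by library total alone, miR-335-5p was at 171.8, 176.5 and 159.8 in WT, at 156.4, 210.5 and 181.1 in Mbnl1KO and at 265.5, 318.3 and 176.3 in Mbnl2KO. Mbnl2KO replicate 3 was then within the WT range, and Mbnl1KO replicates 2 and 3 were above it, so the groups overlapped. On the same scale miR-335-3p was at 8.946, 8.801 and 7.981 in WT, at 14.59, 12.15 and 9.240 in Mbnl1KO and at 20.66, 25.85 and 9.855 in Mbnl2KO. Every Mbnl1KO library then exceeded every WT library for miR-335-3p, and Mbnl2KO replicate 3 fell inside the Mbnl1KO range. Mbnl2KO replicates 1 and 2 were the highest libraries for both arms on either scale.

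**Figure D2:**
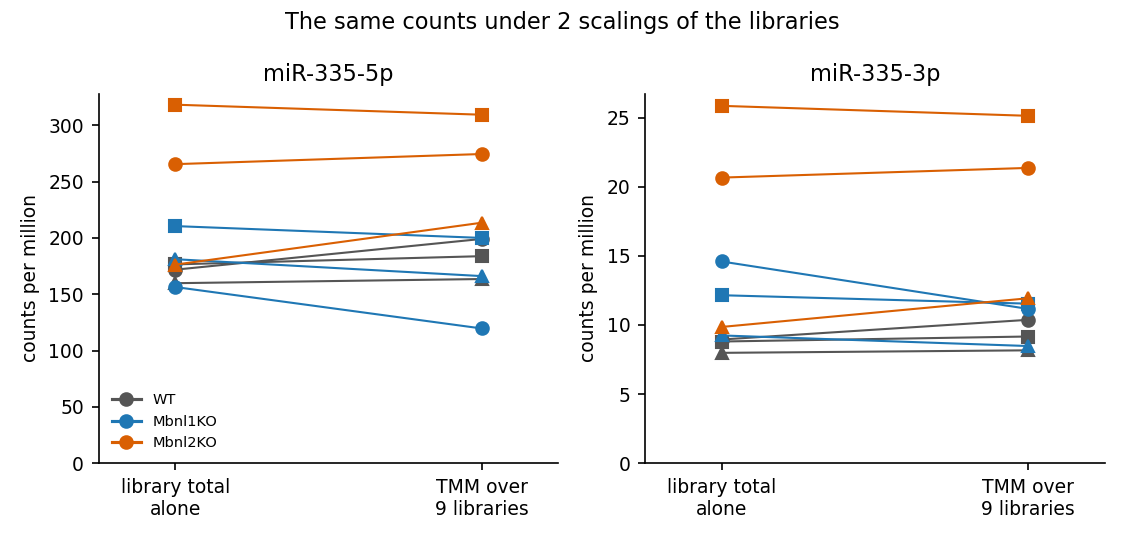
CPM of miR-335-5p (left) and miR-335-3p (right) by library total alone and after TMM scaling over the 9 libraries, 1 line per library, with circles, squares and triangles for replicates 1, 2 and 3. The line of Mbnl2KO replicate 3 rises from 176.3 to 213.5 for 5p and leaves the WT range, and that of Mbnl1KO replicate 1 falls from 156.4 to 119.6.

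The comparison of Mbnl2KO with WT asks how loss of MBNL2 was accompanied by a change of miR-335. Fold changes come from fits on the 6 libraries of a comparison, with TMM scaling over those 6. miR-335-5p was 1.48-fold higher in Mbnl2KO (log2 fold change 0.56, SE 0.146), and miR-335-3p was 2.14-fold higher (log2 fold change 1.1, SE 0.256). Both arms were called in this comparison, as the choice of miR-335 required, beside 5.80% of all 293 miRNAs tested (17 in either direction) and 3.41% called higher. The groups of 3 did not overlap for either arm, and the same was true, in this direction, of 12.6% of all miRNAs tested. In the order from the most increased miRNA, miR-335-3p came 7th and miR-335-5p 27th of 293. The call of miR-335-5p was lost in 5 of the 6 fits without 1 library, namely without WT replicate 1 (log2 fold change 0.60), WT replicate 2 (0.57), WT replicate 3 (0.50), Mbnl2KO replicate 1 (0.48) and Mbnl2KO replicate 2 (0.50). It was also lost with library totals alone (0.58), with a mean normalized count above 100 (0.56) and with all 9 libraries in 1 fit (0.55). That of miR-335-3p was lost in 3 of the 6, without WT replicate 2 (1.09), WT replicate 3 (1.04) and Mbnl2KO replicate 1 (0.97).

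In the comparison of Mbnl1KO with WT, which shares the WT libraries, miR-335-5p had a ratio of 0.887 (log2 fold change -0.17, SE 0.161) and miR-335-3p a ratio of 1.12 (log2 fold change 0.16, SE 0.285). Each value is about as large as its SE, or smaller, so that no change of either arm was resolved. Neither arm was called, where 33.1% of 317 miRNAs tested were. From the most increased miRNA, miR-335-3p came 128th and miR-335-5p 198th of 317. The negative sign of miR-335-5p rested on Mbnl1KO replicate 1 and on the scaling: the log2 fold change was 0.01 without that library and 0.11 with library totals alone. The value of miR-335-3p with library totals alone was 0.48, again without a call. No direction is therefore given for miR-335-5p in Mbnl1KO. With library totals alone, the median over all 317 miRNAs moved from -0.01 to 0.28, and the value of miR-335-5p relative to that median remained below 0.

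The direct comparison of the knockouts, without WT, gave a level of miR-335-5p that was 1.65-fold higher in Mbnl2KO than in Mbnl1KO (log2 fold change 0.72, SE 0.192) and a level of miR-335-3p that was 1.89-fold higher (log2 fold change 0.92, SE 0.268). This is the difference for which miR-335 was chosen. Both arms were called, beside 26.9% of 309 miRNAs tested in either direction and 11.7% called higher in Mbnl2KO. All Mbnl2KO libraries were above all Mbnl1KO libraries for both arms, as for 24.3% of miRNAs tested. miR-335-3p came 18th and miR-335-5p 29th of 309 from the most increased. With library totals alone both calls were lost, and the log2 fold changes were 0.47 for miR-335-5p and 0.65 for miR-335-3p, while the median over all miRNAs moved from -0.07 to -0.35. Without Mbnl1KO replicate 3 both calls were lost as well (0.73 and 0.78). That of miR-335-3p was also lost without Mbnl2KO replicate 1 (0.85) and without Mbnl2KO replicate 2 (0.72).

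**Figure D3:**
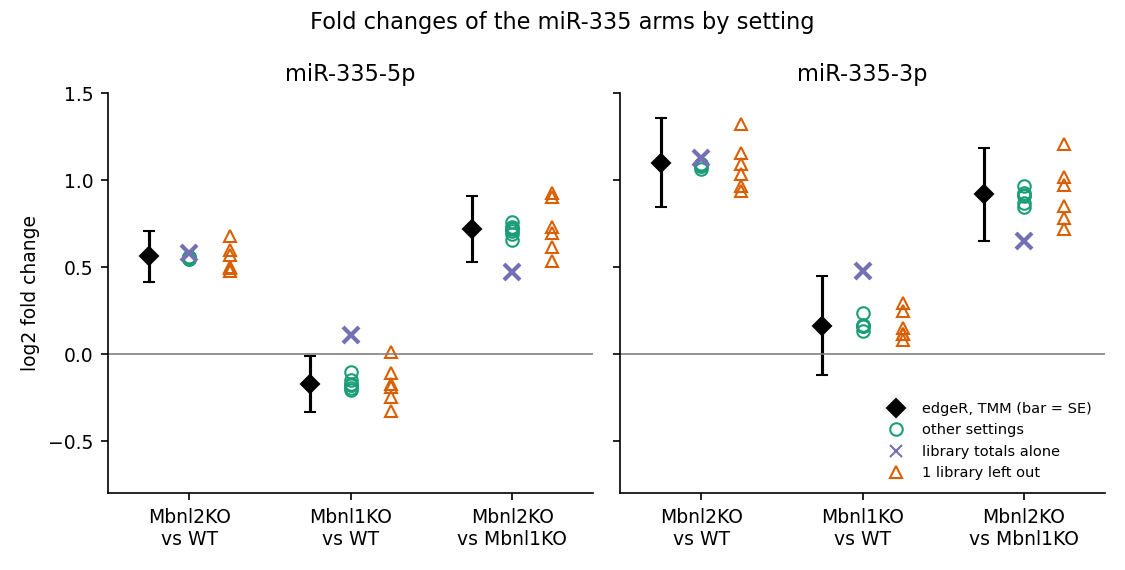
Log2 fold change of miR-335-5p (left) and miR-335-3p (right) in each comparison: diamonds with SE for the fit by edgeR with TMM, circles for other settings, crosses for library totals alone and triangles for fits without 1 library. In Mbnl2KO against WT the fits without 1 library span 0.48 to 0.68 (5p) and 0.94 to 1.33 (3p), whereas miR-335-5p in Mbnl1KO against WT lies on both sides of 0.

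The 2 arms are cut from 1 hairpin and are counted in the same library. The share of miR-335-3p in the counts of both arms is taken within a library, so it does not depend on how libraries are scaled. It was 4.95%, 4.75% and 4.76% in WT replicates 1, 2 and 3 (4.82% ± 0.11, SD, n = 3). In Mbnl2KO it was 7.22%, 7.51% and 5.29% (6.67% ± 1.2, SD, n = 3), above WT in each library. In Mbnl1KO it was 8.53%, 5.46% and 4.85% (6.28% ± 2.0, SD, n = 3), above WT in replicates 1 and 2 and within the WT range in replicate 3. The highest share of all was that of Mbnl1KO replicate 1, the library in which miR-335-5p was lowest. Its 95% Clopper-Pearson interval, which covers counting error only, was 6.88% to 10.4%, against 3.75% to 6.40% in WT replicate 1. The intervals of Mbnl2KO replicates 1 and 2 were 6.03% to 8.55% and 6.38% to 8.77%, and that of replicate 3 was 4.0% to 6.85%, which covers every WT value. In terms of the ratio, there were 19.8 ± 0.486 counts of miR-335-5p for each count of miR-335-3p in WT, 15.9 ± 4.61 in Mbnl1KO and 14.4 ± 3.08 in Mbnl2KO (SD, n = 3). Ligation and amplification favour some small RNAs over others, so this ratio compares libraries and is not a ratio of molecules.

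**Figure D4:**
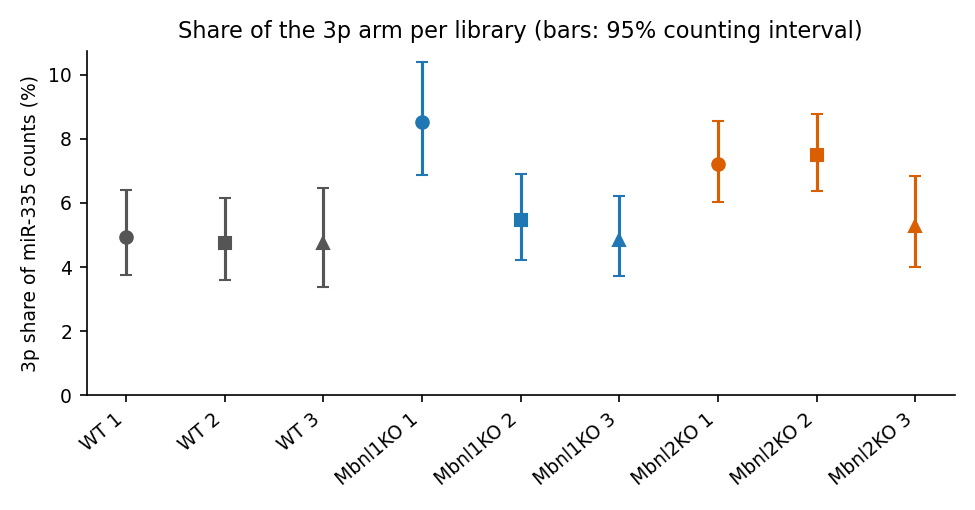
Share of miR-335-3p in the counts of both arms in each library, in percent, with 95% Clopper-Pearson intervals for counting error. WT libraries lie at 4.75% to 4.95%, Mbnl2KO replicates 1 and 2 and Mbnl1KO replicate 1 are at 7.22% or above, and the other Mbnl libraries are at 4.85% to 5.46%.

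The arms of miR-335 moved by unequal amounts in Mbnl2KO, and the same was seen for other hairpins. The log2 fold change of miR-335-3p exceeded that of miR-335-5p by 0.54 in Mbnl2KO against WT. Among the 67 hairpins with both arms tested, the median size of this difference was 0.25, and it was as large as for miR-335 or larger in 11, miR-335 included. In Mbnl1KO against WT the difference was 0.34, with a median size of 0.25 over 77 hairpins, of which 32 had one as large or larger. Between the knockouts it was 0.20, with a median size of 0.34 over 75 hairpins, and 53 had one as large or larger. The imbalance of the miR-335 arms was therefore within the range of other hairpins in each comparison. Over the 9 libraries, the log2 levels of both arms had a Pearson r of 0.795, a description over libraries that share their scaling and groups.

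**Figure D5:**
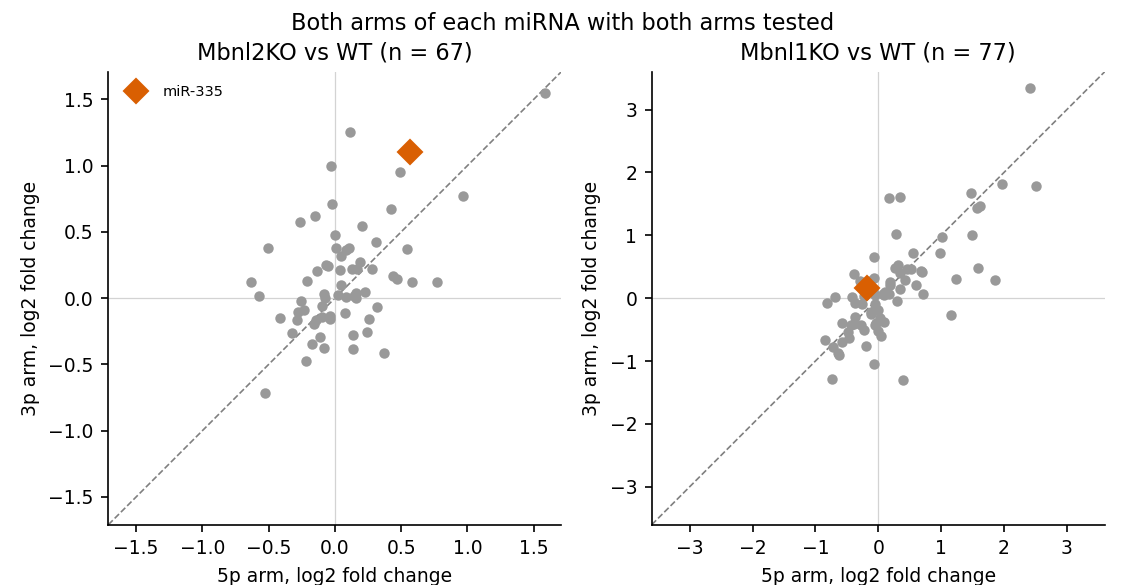
Log2 fold change of the 3p arm against that of the 5p arm for each hairpin with both arms tested, in Mbnl2KO against WT (67 hairpins) and Mbnl1KO against WT (77 hairpins), with the dashed line marking equal change. In the first panel miR-335 (diamond) lies at 0.56 and 1.1, to the upper right of most other hairpins. In the second panel it lies at -0.17 and 0.16, near the centre of the other hairpins.

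miR-335 has few miRNA neighbours. Within 1 Mb of its hairpin the RefSeq table places miR-29a and miR-29b-1 at 321 to 322 kb and miR-183, miR-96 and miR-182 at 572 to 575 kb (distances on GRCm38.p6), all on the opposite strand and thus in other transcripts. They have 10 entries in the table, of which 6 passed the filter on low counts. In Mbnl2KO against WT, 2 of the 6 were called higher and none lower, beside the 3.41% of all miRNAs. The 6 had a median of -0.08 on the log2 scale, against 0.02 over all 293. The called neighbours were miR-182-5p and miR-183-5p, products of a cluster known for its role in sensory organs. miR-182-5p was at 9.802, 10.01 and 10.1 CPM in WT and at 19.27, 37.95 and 17.24 in Mbnl2KO (log2 fold change 1.33, SE 0.256, edgeR adjusted p = 0.00235). In Mbnl1KO, where neither arm of miR-335 was called, miR-182-5p was called higher as well (16.35, 28.32 and 17.09 CPM, log2 fold change 1.03, SE 0.254, edgeR adjusted p = 0.000630).

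miR-183-5p had the profile most like that of miR-335-3p over the 9 libraries (r = 0.911). It was at 6.221, 5.430 and 6.444 CPM in WT, at 6.358, 7.395 and 4.822 in Mbnl1KO and at 9.897, 20 and 8.619 in Mbnl2KO. Like both arms of miR-335, it was called in Mbnl2KO against WT (log2 fold change 1.11, SE 0.296, edgeR adjusted p = 0.0243) and between the knockouts (1.07, SE 0.325, edgeR adjusted p = 0.0260), and was not called in Mbnl1KO against WT (0.03, SE 0.316). With so similar a profile in the same libraries, a like pattern of calls is no separate result. Its call against WT held in 5 of 13 other settings, with log2 fold changes between 0.70 and 1.30, and it was lost without any 1 of the WT libraries and without Mbnl2KO replicate 1 or 2. That of miR-182-5p held in 13 of 13. Between the knockouts, the call of miR-183-5p was lost without Mbnl1KO replicate 3 or Mbnl2KO replicate 2 and with library totals alone. The miR-29 miRNAs, which lie nearer to miR-335 and restrain the synthesis of collagens and other matrix proteins, did not pass the test in any comparison. In Mbnl2KO against WT miR-29a-3p had a log2 fold change of -0.15 (SE 0.120), miR-29a-5p of -0.42 (SE 0.352) and miR-29b-1-5p of -0.69 (SE 0.256). miR-29b-3p, at -0.01 (SE 0.189), also comes from a precursor on another chromosome, so its counts cannot be assigned to this region. The miRNAs with precursors nearest to miR-335 thus had values at or below 0 in this comparison, against 0.56 and 1.1 for its arms.

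The seeds of these neighbours, printed in capitals for comparison with those of miR-335, differ from both of its arms.
miR-182-5p: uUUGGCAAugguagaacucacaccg
miR-183-5p: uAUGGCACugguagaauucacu

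miRNAs of other imprinted regions were set beside miR-335. Of 8 entries from H19/Igf2 and Nespas (miR-675, miR-483, miR-296 and miR-298), only miR-483-3p passed the filter. Its log2 fold change was -0.12 (SE 0.285) in Mbnl2KO and -0.46 (SE 0.316) in Mbnl1KO against WT, and it was not called in either. The Dlk1-Dio3 region holds a large group of miRNAs that are expressed from the maternal chromosome. In Mbnl2KO against WT, where both arms of miR-335 were called, 0 of its 39 tested miRNAs were, beside 5.80% of all 293, with a median log2 fold change of 0.26 against 0.02 over all. In Mbnl1KO against WT, where miR-335 was not called, 34 of 46 were called higher, beside 18.9% of all miRNAs, and none lower, with a median of 1.46 against -0.01 over all miRNAs. Both comparisons share the WT libraries. Between the knockouts, 29 of 44 were called lower in Mbnl2KO, beside 15.2% of all miRNAs, and both arms of miR-335 were called higher.

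Profiles over the 9 libraries were compared with those of 286 miRNAs tested in all comparisons, as Pearson's r of log2 CPM. These r values describe libraries that share depth, scaling and group, and say nothing of a common control. The 5 miRNAs most like miR-335-5p were miR-3084-3p (0.919), miR-222-3p (0.916), miR-653-5p (0.909), miR-221-5p (0.881) and miR-140-3p (0.811). miR-222-3p and miR-221-5p belong to the miR-221/222 pair, known for promoting cell proliferation. The 3p arm of miR-221, more abundant than either, was not among the 5. miR-222-3p was at 85.02, 82.30 and 75.18 CPM in WT, at 64.88, 86.39 and 74.37 in Mbnl1KO and at 87.51, 110.9 and 97.02 in Mbnl2KO. As for miR-335-5p, Mbnl1KO replicate 1 was the lowest library of miR-222-3p and Mbnl2KO replicate 2 its highest. miR-140-3p, whose hairpin lies in an intron of Wwp2, ran from 199.3 to 240.1 CPM in WT and reached 713.8 in Mbnl2KO replicate 2. miR-3084-3p and miR-653-5p were below 7 CPM in every library. None of the 5 was called in Mbnl2KO against WT, and miR-653-5p and miR-221-5p were called higher in Mbnl2KO than in Mbnl1KO (log2 fold changes 1.22 and 0.82).

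The 5 most like miR-335-3p were miR-183-5p (0.911), miR-150-5p (0.901), miR-15b-5p (0.891), miR-148a-3p (0.883) and miR-148a-5p (0.854). miR-148a-3p was at 564.6, 502.3 and 442.9 CPM in WT, at 654.5, 704.1 and 645.1 in Mbnl1KO and at 807.6, 1035 and 704.6 in Mbnl2KO. It was called higher in both knockouts (log2 fold change 0.77, SE 0.137, in Mbnl2KO and 0.41, SE 0.145, in Mbnl1KO). miR-335-3p was not called in Mbnl1KO, with a value of the same sign (0.16, SE 0.285). Whether the 2 miRNAs differ there was not tested. miR-150-5p, a miRNA of lymphocytes, was at 148.5, 163.9 and 132.5 CPM in WT, at 146.9, 154.9 and 144.1 in Mbnl1KO and at 217.4, 194.9 and 158.7 in Mbnl2KO, and was not called (log2 fold change 0.38, SE 0.149). Of the 5 named for each arm, 4 were also among the 5 nearest with library totals alone. With TMM the lists of the 2 arms had no miRNA in common, and with library totals alone miR-183-5p and miR-221-5p were in both.

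Quadriceps holds cells other than muscle fibres, and fewer cells of a type cannot be told apart from less of a miRNA per cell. Muscle fibre miRNAs dominated every library, as the label of the tissue implies, although miR-486a-5p was listed at 0. Of 5 muscle fibre miRNAs tested, 1 was called in Mbnl2KO against WT, beside 5.80% of all miRNAs, with a median log2 fold change of -0.15. It was miR-206-3p, a miRNA of regenerating and slow fibres, which was higher (0.89), whereas miR-1a-3p was at 0.02. In Mbnl1KO against WT 2 of the 5 were called higher, beside 18.9% of all miRNAs, miR-206-3p (1.93) and miR-133b-3p (0.71). Both were called lower in Mbnl2KO than in Mbnl1KO (-1.06 and -0.88), beside 15.2%. Of 8 markers of connective tissue and the vessel wall, miR-143-3p was called higher in Mbnl2KO against WT (log2 fold change 0.48), beside 3.41% of all miRNAs, and the other 7 were not called. Its call was lost without WT replicate 2, without Mbnl2KO replicate 1 or 3, with library totals alone and with all 9 libraries in 1 fit. Between the knockouts, where both arms of miR-335 were called higher in Mbnl2KO, 2 of the 8 were as well, beside 11.7% of all miRNAs, namely miR-199a-3p (log2 fold change 0.45) and miR-199b-5p (0.65). miR-199a-3p was also called lower in Mbnl1KO than in WT (-0.43), beside 33.1% of all miRNAs called in either direction. Their summed level was 6346 to 7104 CPM over WT libraries, 5786 to 8496 over Mbnl1KO libraries and 7565 to 8738 over Mbnl2KO libraries. The higher sum in Mbnl2KO was that of miR-143-3p. Without it, the other 7 summed to 2671 to 2789 CPM over WT libraries and 2611 to 2950 over Mbnl2KO libraries, which overlap, and the highest sum of all 8 was in Mbnl2KO replicate 3, the Mbnl2KO library in which both arms of miR-335 were lowest. The part of miR-143-3p and of such cells in the level of miR-335 was not tested. Blood and immune miRNAs summed to 397.6 to 432.5 CPM over WT libraries, 403.8 to 543.4 over Mbnl1KO libraries and 414.4 to 458.7 over Mbnl2KO libraries. Of these, 0 of 6 tested were called in Mbnl2KO against WT, beside 5.80% of all miRNAs. Between the knockouts 3 of the 6 were called, beside 26.9%, with miR-223-3p (log2 fold change 0.98) and miR-142a-5p (1.19) higher in Mbnl2KO, as miR-335 was, and miR-155-5p lower (-1.31). In Mbnl1KO against WT 3 of the 6 were called, 1 higher and 2 lower, beside 33.1% of all miRNAs called in either direction, so the sums hide changes in opposite directions. The part of these cells in the level of miR-335 was not tested. miR-126a of endothelium was listed at 0 for both arms, as were miR-142a-3p, miR-122-5p of liver and miR-9-5p of neurons, and miRNAs of other tissues summed to at most 4.511 CPM. An entry of 0 is not read here as absence of a miRNA or a cell type, since miR-142a-5p has counts where miR-142a-3p has none. Endothelial cells can therefore not be followed in this table.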

How the data were processed

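The deposited values are raw counts of reads per mature miRNA in 9 libraries, not normalized by the authors, made from 200 ng of total RNA with a NEXTflex small RNA kit. Per the study's methods for these mice, adapters were clipped, identical reads collapsed and the reads aligned with Megablast to precursors of miRBase 21, sense and without mismatch, and reads within a mature miRNA or up to 2 nt beyond its ends were summed. The table itself names no procedure. DESeq2 is named in the submitters' processing notes. Total counts were 4761271 to 6277018 per library, so counting error is small for miR-335-5p (761 counts or more) and large for miR-335-3p (38 to 147). No read was aligned again.

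miR-335 and all lists of miRNAs were chosen with earlier results of these data known. Fits used the 6 libraries of 2 groups in edgeR 4.0.16 (quasi-likelihood test, robust, TMM, Benjamini-Hochberg) under R 4.3.3. A miRNA was tested if its normalized count averaged more than 10, and called at an adjusted p below 0.05. Levels are CPM with TMM over 9 libraries, and profiles used log2 of these plus 0.5. Named were both arms, the 5 nearest profiles per arm among miRNAs tested in all comparisons, tested neighbours within 1 Mb on chromosome 6, called members of the other lists (at most 5 a list) and the most abundant marker of each cell type. Of these list members, only those bearing on a result are given by name. Sequences are from RefSeq (GRCm38.p6), placed by exact match on GRCm39 with GENCODE M39, and folds from ViennaRNA 2.7.2. Fits were tested on simulated data with fold changes larger than those of miR-335, so that test does not cover changes of its size.

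Alternatives were DESeq2 size factors, library totals with and without miR-1a-3p, DESeq2 1.42.0 (Wald test), no filter beyond 1 count, a mean above 100, 1 fit of all 9 libraries, replicate numbers as a block and each library left out. Replicate libraries differed by more than counting error (chi-square per degree of freedom 45.5 to 323), and none was left out of the values given.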

Additional observations from a re-analysis of the deposited data

How the results depend on the processing

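The increase of both arms in Mbnl2KO against WT kept its direction under all alternatives, and its call did not. For miR-335-5p the call was lost with library totals alone (log2 fold change 0.58), with a mean count above 100 (0.56) and with all 9 libraries in 1 fit (0.55). Leaving out 1 library gave 0.48 to 0.68, with a call only without Mbnl2KO replicate 3. For miR-335-3p these fits gave 0.94 to 1.33 and lost the call without WT replicate 2 (1.09), WT replicate 3 (1.04) or Mbnl2KO replicate 1 (0.97). In Mbnl1KO against WT, miR-335-5p reversed with library totals alone (0.11) and without Mbnl1KO replicate 1 (0.015), with a range of -0.33 to 0.01 over the fits without 1 library, and miR-335-3p ranged from 0.08 to 0.29 in these fits and reached 0.48 with library totals alone, with no call. Between the knockouts, library totals alone ended the calls of both arms (0.47 and 0.65). Leaving out 1 library gave 0.54 to 0.92 for miR-335-5p and 0.72 to 1.21 for miR-335-3p. miR-335-3p could not be fitted with a mean count above 100, which it does not reach. The cause of these changes was not tested. The number of miRNAs called in Mbnl2KO against WT was 17, and it was 7 with library totals alone, 9 with a mean count above 100, where fewer were tested, 11 with all 9 libraries and 6 to 25 without 1 library. In Mbnl1KO against WT it was 105, then 68 with a mean count above 100 and 75 to 115 without 1 library. Between the knockouts it was 83, and 55 to 93 without 1 library, with 55 reached without Mbnl1KO replicate 3. With library totals alone the share of calls that were higher went from 57.1% to 89.2% in Mbnl1KO against WT, from 43.4% to 5.41% in Mbnl2KO against Mbnl1KO and from 58.8% to 71.4% in Mbnl2KO against WT. Replicate numbers did not pair the libraries, since same-numbered libraries correlated with r between -0.156 and 0.112. With the replicate block 21, 92 and 80 miRNAs were called, and both arms of miR-335 kept their calls.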
